A study of Mus musculus with 2 samples.

Results

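The 38 genes described here encode parts of the lysosome and of its proton pump, the vacuolar ATPase (V-ATPase). They were listed by symbol, as 15 V-ATPase genes and 23 other lysosomal genes among the 32285 genes of the expression matrix. Earlier results of these data were known when they were chosen. All 38 were detected, with 125535 unique molecular identifiers (UMIs, each counting 1 captured transcript) of 17681092, which was 0.710% of all gene UMIs. By UMIs summed over cells, the highest share was measured in macrophage-like cells and the lowest in stromal-like cells. Among neutrophil-like cells the summed share was highest in the activated class. The median macrophage-like cell had a lower share than the median activated cell. Ovariectomized (OVX) and sham pools differed little in the summed share (1.06-fold). Of the single genes, 1 was at least 1.5-fold higher in OVX (Ctsc) and 3 were lower (Gusb, Ctsl and Atp6v1h) of 37 compared, where 4.66% of all genes were higher and 21.1% lower. These results depended on how barcodes were assigned. By their share of hashtag UMIs, 6 genes were higher and 2 lower, and the summed ratio was 1.20. Shares over all genes were not computed under that rule. With both pools set to the same make-up of cell classes, Ctsc (1.45), Gusb (0.797), Ctsl (0.954) and Atp6v1h (0.799) fell short of 1.5-fold. Ctss (1.63) and Cd68 (1.51) then passed it. Ctss was most abundant in macrophage-like cells, of which 36 were OVX and 62 sham. There it was seen in 63.9% of OVX and 62.9% of sham cells, and 1 OVX cell held 40 of 217 UMIs. Ratios at the same make-up were not made for all genes, so no such share stands beside them, and they have no interval.

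Osteal macrophages (Omacs) were isolated from femurs and vertebrae of female BALB/c mice that were 10 weeks old at ovariectomy or sham surgery, and that were killed 4 weeks later. Cells of 20 mice per condition were collected, freed from bone with trypsin and overnight collagenase, and sorted on CD11b together with F4/80 or CD68. The OVX cells carried hashtag antibody 1 and the sham cells hashtag antibody 2, and both were run in 1 droplet library. Ketamine and xylazine were given as anesthesia for ovariectomy, and no transgene or other drug was named for these mice. Each condition was 1 pool, so no test across animals was possible. Intervals are exact 95% intervals of counting error only. Of 2349 barcodes, with a median of 4387 UMIs, 1059 were assigned to OVX and 981 to sham, 78 passed both hashtag cutoffs and 231 passed neither. The labels give 1037 OVX and 1084 sham cells loaded.

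Lysosomes are acidic compartments in which proteins, lipids and sugars delivered by endocytosis, phagocytosis and autophagy are broken down. The V-ATPase acidifies them: its V1 part hydrolyses ATP in the cytosol and turns the V0 part in the membrane, which carries protons inward. Macrophages are rich in lysosomes, and neutrophils hold lysosomal enzymes in granules, many of which are made early in their development. Many lysosomal genes carry a CLEAR element, a short E-box-type sequence bound by the MiT/TFE family of transcription factors, of which TFEB is the best known.

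The promoter table of RefSeq (GRCm38.p6, 250 bases before to 50 after each start) held 30 of the 38 genes. Npc1, Ctsb, Ctsh, Asah1, Atp6v1b2, Atp6v1c1, Atp6v1g1 and Atp6v1h were not matched. TCACGTG, read on both strands and containing the E-box CACGTG, was found in 10 of the 30 (33.3%) and in 4.29% of 27025 genes with a promoter. The longer palindrome TCACGTGA was found in 6 of the 30 (20%) against 1.12% of all genes. Distances below are counted from the RefSeq start, which for Ctsd lies inside the gene coordinates given later. The windows below show these letters in capitals, on the gene's strand, for genes of different roles whose levels are described later: the protease Ctsd, V0 subunits, a membrane protein and legumain.
Ctsd, chr7:142387908-142387937 (minus), 98 bases before the start: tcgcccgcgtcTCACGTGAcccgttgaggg
Atp6v0b, chr4:117887330-117887359 (minus), 18 bases before the start: gggtcggcgcaTCACGTGcgccggtcaggt
Atp6v0d1, chr8:105566050-105566079 (minus), 3 bases before the start: ccctactgcggTCACGTGAgacgcggtgcg
Lamp1, chr8:13159088-13159117 (plus), 61 bases before the start: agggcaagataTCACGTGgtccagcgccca
Lgmn, chr12:102439124-102439153 (minus), 49 bases before the start: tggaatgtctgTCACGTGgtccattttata
The same letters stood in the promoters of Atp6v0e, Atp6v1a, Ctsa, Gaa and Mcoln1. Ctsl held only the CACGTG core, and the windows of Atp6v0c and Psap held none of these letters. Genes with the match differed in their order over the classes below. Ctsd was lowest in stromal-like cells. Lamp1 was lower in immature (89.6 CPM; 77.7 to 103) than in stromal-like cells (201 CPM; 189 to 213). Lgmn, with 3 UMIs in the immature class, was at 1.32 CPM there (0.272 to 3.85) and at 12.4 in stromal-like cells (9.65 to 15.7).

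The cells were grouped by the other genes of the matrix, with these 38 genes and related pathway lists left out, and named from marker genes. In spite of the macrophage sort, 2021 barcodes (86.0%) were neutrophil-like. They formed a cycling progenitor class (21 cells, with Elane, Prtn3 and cycling genes), an immature class (258, Ltf and Camp), a resting class (701, Retnlg and Slc2a3), a stefin-high class (541, Stfa2 and Cstdc5) and an activated class (500, Ccl4 and Jaml). The last 3 are called mature below. Macrophage-like cells numbered 118. They carried Arg1 at 3978 and Msr1 at 861 counts per 1000000 gene UMIs (CPM), but Adgre1, which encodes F4/80, at 66.0 CPM and Csf1r at 93.9 CPM, and the complement genes C1qa, C1qb and C1qc had 1, 1 and 0 UMIs. Pf4 and Ppbp, which mark platelets, were also among their leading genes, as were the MHC class II genes H2-Aa and H2-Eb1 with Cd74, and Il7r. The remaining 210 cells were stromal-like (Prg4, Dcn), and 112 of them passed neither hashtag cutoff. Median depth ran from 2606 UMIs in the activated class to 19996 in stromal-like cells. In 3′ libraries a transcript is tagged once, so CPM was not divided by gene length.

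The summed share of the 38 genes was 0.443% in cycling progenitors and 0.512% in immature cells. It was 0.770% in the resting class, 0.856% in the stefin-high class and 1.19% in the activated class. Macrophage-like cells reached 1.56% (1.53 to 1.58) and stromal-like cells 0.393% (0.388 to 0.399). No interval of these 7 classes overlapped that of a neighbor in this order. The cells of the macrophage-like class varied most, with a median of 1.02% and quartiles of 0.242% and 2.07%. In the activated class the median cell had 1.14%, with quartiles of 0.860% and 1.49%.

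**Figure D1:**
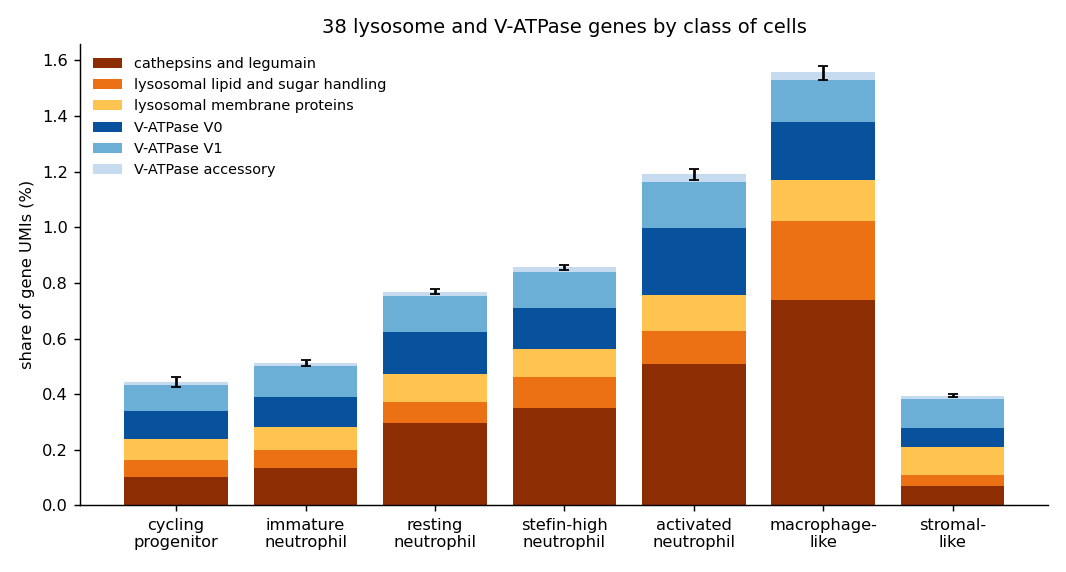
Bars give the share of gene UMIs (%) from the 38 genes in each class of cells, stacked by role, and error bars the exact 95% interval of the sum. The share was 0.512% in immature, 1.19% in activated and 1.56% in macrophage-like cells, and cathepsins with legumain were the largest layer in each of these 3.

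A share is relative to all other transcripts of the cell. Activated cells held 37.3 UMIs of the 38 genes per cell and immature cells 45.2, because the activated cells had fewer UMIs in all (mean, 3134 against 8829). Per cell, 8 of the 38 genes were higher in the activated class and 30 lower. The 8 were Ctsd (11.4 against 7.66 UMIs per cell), Atp6v0c (4.26 against 3.28), Ctsb (2.09 against 0.593), Npc1, Ctsz, Psap, Atp6v1b2 and Lgmn. RNA content and capture of a cell cannot be told apart here. The alarmins S100a8 and S100a9 also took a large part of the neutrophil UMIs: without them in the total, the share was 0.771% in immature, 1.06% in resting and 1.39% in activated cells. Setting these genes aside was chosen after seeing the data.

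Between the immature and the activated class, 33 of the 38 genes had at least 100 UMIs, the minimum used for a fold. Of these 33, 22 were at least 1.5-fold higher in activated cells by CPM, none was 1.5-fold lower and 11 lay between. Over all 3568 genes with that many UMIs, 37.1% were 1.5-fold higher and 22.5% lower, and the median log2 fold was 0.27 against 0.80 for the 33. The summed share was 2.33-fold higher (2.27 to 2.38). The sum of cathepsins and legumain was 3.83-fold higher, that of V0 subunits 2.22-fold and that of V1 subunits 1.5-fold. Ctsb (9.93-fold), Npc1 (4.84), Ctsd (4.20), Atp6v0c (3.66) and Ctsz (3.11) had the largest folds. Mcoln1, Lgmn, Gusb, Gaa and Atp6v1h had fewer than 100 UMIs in these classes.

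**Figure D2:**
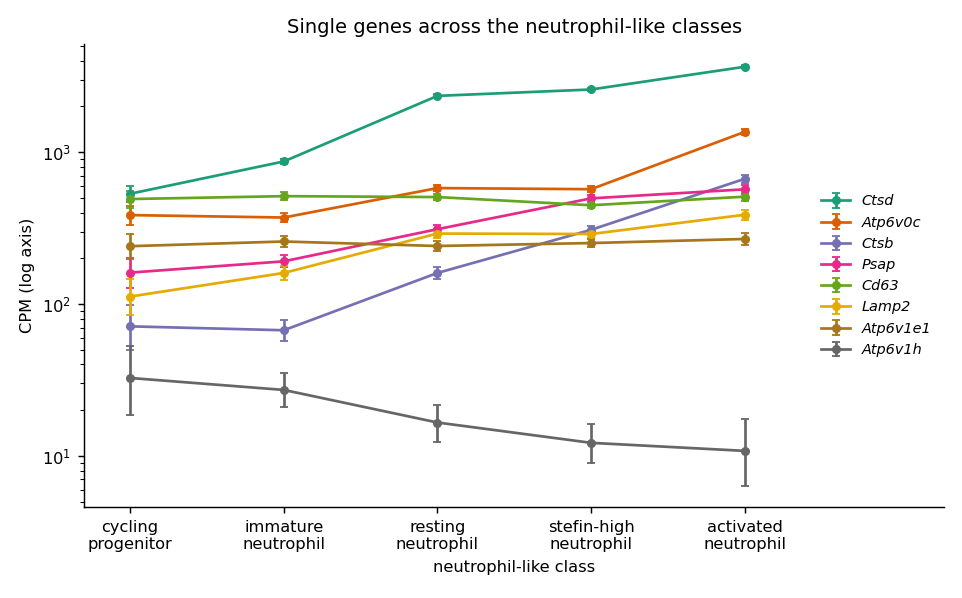
CPM (log axis) of 8 of the genes in the 5 neutrophil-like classes; points are sums over the cells of a class with exact 95% Poisson intervals, and lines only join the points of a gene. Ctsd, Atp6v0c and Ctsb were highest in the activated class, Cd63 stayed between 447 and 513 CPM and Atp6v1e1 between 240.3 and 268, and Atp6v1h was lowest in the activated class.

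Of the V0 subunits, Atp6v0c, the proteolipid of the rotating membrane ring, was the most abundant, at 371 CPM in immature, 579.7 in resting and 1359 in activated cells. Macrophage-like cells had 1112 CPM of Atp6v0c and stromal-like cells 292. Atp6v0b, which encodes another ring proteolipid, spanned a smaller range, from 164 CPM in stromal-like to 406 in macrophage-like cells. Atp6v0e, a small V0 subunit, ranged from 179 to 392 CPM between the same classes. Atp6v0d1, which links the ring to the central stalk, stood at 30.5 CPM in stromal-like cells and at 113 to 129 CPM in mature neutrophil-like cells. Atp6v0a1, an isoform of the subunit that forms the proton path and steers the pump to its membrane, had another order: 132 CPM in immature and 198 in stefin-high cells, but 46.4 in macrophage-like and 18.1 in stromal-like cells. Macrophage-like cells had 0.272 times its neutrophil-like level (0.198 to 0.366).

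Among the V1 subunits, Atp6v1e1, of the peripheral stalk, was nearly level, from 240.3 CPM in progenitors to 271 in stromal-like cells. Atp6v1g1, of the same stalk, ran from 220.0 CPM in progenitors to 544 in activated cells. Atp6v1a, which encodes the catalytic subunit, measured 105 CPM in resting, 161 in activated and 215 in macrophage-like cells. The B subunit gene Atp6v1b2, whose product binds nucleotide beside it, went from 83.9 CPM in immature to 250.2 in activated cells and was 33.1 in stromal-like cells. Atp6v1f and Atp6v1d, of the central stalk, differed in order: Atp6v1f was highest in macrophage-like cells (269 CPM), and Atp6v1d was highest in immature cells (107) and lowest in macrophage-like cells (64.0). Atp6v1c1, whose product takes part in joining V1 to V0, was at 20.2 CPM in immature and 103 in macrophage-like cells. Atp6v1h, a regulatory subunit gene, was lowest in the activated class, with 27.2 CPM in immature, 10.8 in activated and 50.4 in stromal-like cells. The accessory subunit genes Atp6ap1 and Atp6ap2 were 2.67-fold and 2.08-fold higher in activated than in immature cells.

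Among genes of lysosomal membrane proteins, Cd63, a tetraspanin that also lies in primary granules, was the most abundant and the most even, from 447 CPM in stefin-high to 626 in stromal-like cells. Lamp2, a glycoprotein of the lysosomal coat that serves chaperone-mediated autophagy, was 160.2 CPM in immature and 387 in activated cells. Lamp1, its close relative, was 89.6 and 200.4 CPM in those classes and 524 in macrophage-like cells. Cd68, whose protein was used in the sort, stood at 195 CPM in macrophage-like cells, 79.8 in activated and 12.8 in stromal-like cells. Npc1, which exports cholesterol from the lysosome, ran from 6.11 CPM in progenitors to 110.4 in activated cells. Mcoln1, a calcium channel gene, stayed between 3.50 and 17.5 CPM in all 7 classes.

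Ctsd (chr7:142375911-142388038, minus strand, GRCm38), encoding the aspartic protease cathepsin D, gave 21.6% of all UMIs of the 38 genes. Its levels were 532 CPM in progenitors, 868 in immature, 2345 in resting, 2583 in stefin-high and 3646 in activated cells. Macrophage-like cells had less Ctsd than mature neutrophil-like cells, at 1423 CPM, and stromal-like cells had 129.5. Ctsb, a cysteine protease gene, was at 67.2 CPM in immature, 160.2 in resting, 308 in stefin-high and 667 in activated cells, close to its 695 in macrophage-like cells. Ctsl, a cysteine endopeptidase gene, was a macrophage-like gene here, with 3518 CPM against 89.6 to 269 in the other myeloid classes. The genes of cathepsin S (Ctss), which trims the MHC class II invariant chain, and of legumain (Lgmn) were also highest in macrophage-like cells, with 479.7 and 164 CPM in macrophage-like cells. Neutrophil-like classes had 14.3 to 56.1 CPM of Ctss and 1.32 to 13.4 of Lgmn. Ctsc (chr7:88278085-88310888, plus strand), which activates the serine proteases of neutrophil granules, was 73.3 CPM in immature, 162 in stefin-high, 154 in activated and 273 in macrophage-like cells. Ctsz, a carboxypeptidase, and Ctsa, which protects other lysosomal enzymes, were highest in macrophage-like cells, at 631 and 134 CPM. Ctsh, an aminopeptidase, was highest in macrophage-like cells too, at 78.4 CPM.

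Psap, the precursor of the saposins that help digest sphingolipids, was the leading gene of lipid and sugar handling, at 191 CPM in immature, 569 in activated and 1563 in macrophage-like cells. Npc2, which hands cholesterol to NPC1, was 101 CPM in immature and 553 in macrophage-like cells. Lipa, the lysosomal acid lipase gene, was highest in activated cells, at 224 CPM, and was 106 in macrophage-like cells. Grn, encoding progranulin, had no steady order along the neutrophil-like classes, with 181 CPM in immature, 117 in resting, 232 in stefin-high and 142 in activated cells. Hexa, Asah1, Gaa and Gusb, which encode hydrolases of gangliosides, ceramide, glycogen and glucuronides, stayed under 100 CPM in every class. Gusb reached 70.2 CPM in macrophage-like cells and 2.92 to 22.4 CPM in the neutrophil-like classes.

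**Figure D3:**
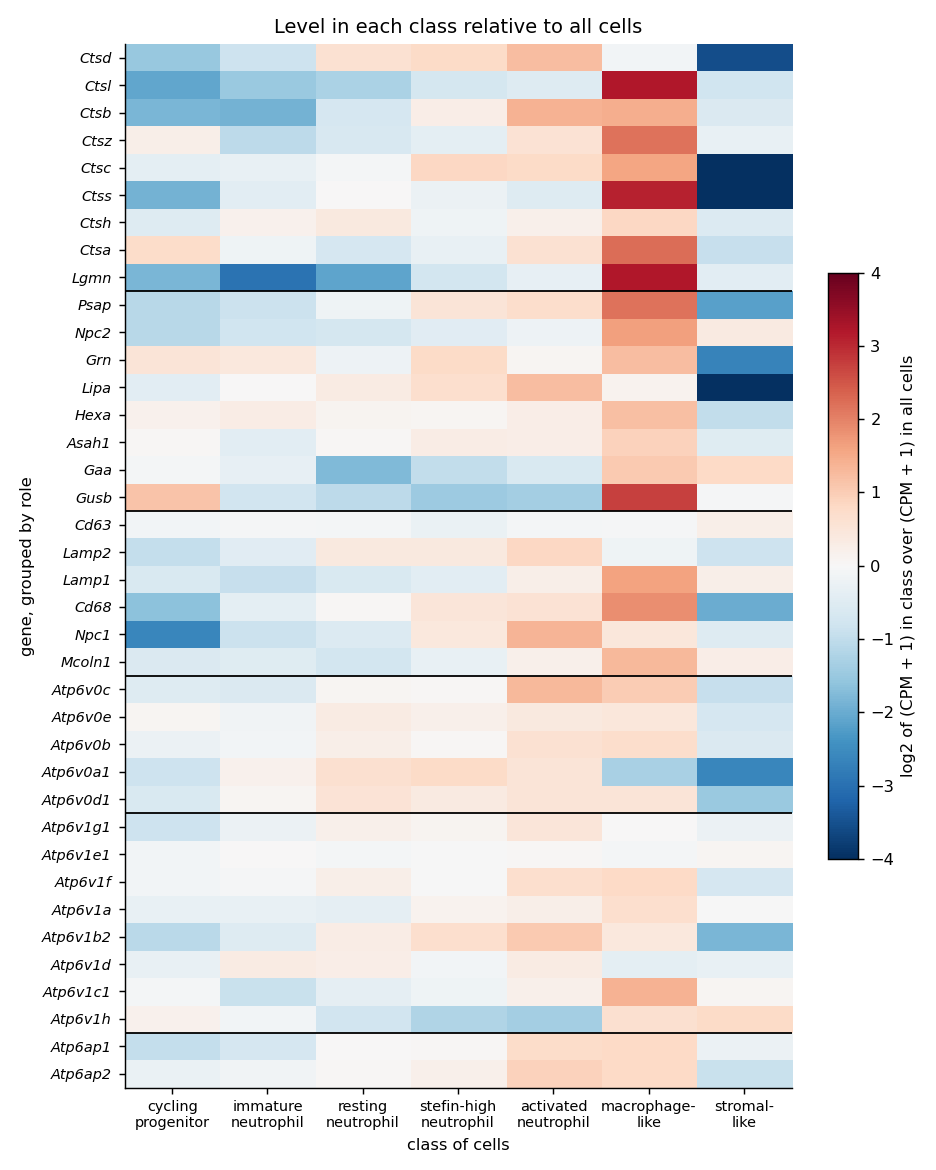
Each row is a gene and each column a class; color gives the log2 ratio of CPM + 1 in the class to CPM + 1 in all cells, with values beyond 4 in either direction drawn at 4. Macrophage-like cells stand out for Ctsl, Ctss, Lgmn and Gusb and activated cells for Ctsd and Npc1, while Ctsb and Atp6v0c are high in both. Stromal-like cells are lowest for Ctsd, Ctsc, Ctss and Lipa.

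Of the 38 genes, 24 had their highest CPM in macrophage-like cells and 8 in activated cells, against 19.1% and 17.1% of 8532 genes with at least 100 UMIs. Among the 5 neutrophil-like classes alone, 22 of 34 with that many UMIs there were highest in the activated class, against 36.3% of 5697 genes. The levels of 15 of the 34 increased in the order progenitor, immature, resting, activated, against 24.3% of those genes. This order follows the names of the classes and is not a measured time course.

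Macrophage-like cells were compared with all neutrophil-like cells. The summed share was 1.97-fold higher (1.94 to 2.00), by 1.30-fold in the V-ATPase genes and 2.37-fold in the others. Of 37 genes with at least 100 UMIs, 24 were 1.5-fold higher and 2 lower, where 45.1% of 6213 genes were higher and 20.4% lower. The largest folds were those of Lgmn (25.3-fold; 19.0 to 33.8), Ctsl (18.3), Gusb (15.2), Ctss (10.5) and Ctsz (5.76). Ctsd (0.639-fold) and Atp6v0a1 (0.272-fold) were lower. With S100a8 and S100a9 left out of the total, 16 were higher and 5 lower. That change scales the folds of all other genes alike. The share over all genes was not computed with it. The macrophage-like class also held neutrophil transcripts, S100a8 at 7.55% and Cxcr2 at 10.9% of their neutrophil-like level, and 4.96% of its UMIs were mitochondrial. Their part in these folds was not tested. Averaging cells with equal weight gave 1.39-fold.

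Stromal-like cells had 0.497 times the summed share of neutrophil-like cells (0.490 to 0.505). Of 37 genes, 6 were 1.5-fold higher and 21 lower, against 54.4% of 8299 genes higher and 26.4% lower. The median log2 fold was -0.67, and that of all genes 0.85. Ctsc (0.0156-fold), Ctss (0.0159), Lipa (0.0356), Ctsd (0.0581) and Atp6v0a1 (0.106) were the lowest. Ctsc and Ctss rested on 10 and 4 UMIs, and neutrophil genes such as S100a8 (0.655%) and Csf3r (1.98%) were seen in stromal-like cells at like fractions of their neutrophil-like level. Expression of these 2 genes in stromal-like cells and free RNA from neutrophils cannot be told apart here. The 6 higher genes were Gaa (3.50-fold), Atp6v1h (2.94), Gusb (2.01), Npc2 (1.91), Lgmn (1.91) and Lamp1 (1.62). With S100a8 and S100a9 left out of the total, 2 were 1.5-fold higher and 25 lower. The share over all genes was not computed with that total. The 6 membrane protein genes summed to nearly the same share in both, 0.10% in stromal-like and 0.0994% in neutrophil-like cells. These totals kept S100a8 and S100a9, at 111068 and 150460 CPM in neutrophil-like and 728 and 1043 CPM in stromal-like cells.

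Shares of cells with a UMI were compared after each cell was thinned to 1000 UMIs, which left out 171 shallower barcodes. Ctsd was seen in 52.8% of immature, 82.5% of resting and 94.1% of activated cells, and in 58.9% of macrophage-like and 8.59% of stromal-like cells. Without thinning, 78.1% of the deep stromal-like cells had a UMI of Ctsd. Atp6v0c was seen in 22.6% of immature, 41.9% of resting, 67.2% of activated and 49.5% of macrophage-like cells. Ctsl was seen in 63.2% of macrophage-like cells and in 9.52% to 20.7% of cells of the neutrophil-like classes. The stromal gene Prg4, which neutrophils should lack, was seen in 12.1% of activated cells after thinning, so low shares here cannot be told from free RNA.

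For OVX against sham, the question of the study was how ovariectomy changes these cells. Over all assigned cells, the 38 genes took 0.787% of UMIs in OVX and 0.742% in sham, a ratio of 1.06 (1.05 to 1.07). The V-ATPase genes hardly differed (1.03 for V0 and for V1), cathepsins with legumain were 1.15-fold higher and membrane protein genes 0.910-fold. Without Ctsd the ratio of the sum was 0.99, and with each cell weighted equally 0.993. Of 37 genes, 1 was 1.5-fold higher and 3 lower, where 4.66% of 7666 genes were higher and 21.1% lower. Ctsc was higher (129.8 against 79.4 CPM; 1.63-fold, 1.47 to 1.82). Ctsl (0.612-fold), Gusb (0.446-fold) and Atp6v1h (0.665-fold) were lower. With barcodes assigned by hashtag share, Ctsl was 0.740-fold, short of 1.5-fold, and Ctsc 2.15-fold. With equal weight per cell they were 0.770-fold and 2.40-fold.

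The pools differed in their make-up. Resting cells were 15.8% of OVX and 45.4% of sham cells, stefin-high cells 40.1% and 8.87%, activated cells 26.6% and 20.2%, and macrophage-like cells 3.40% and 6.32%. Both pools were therefore also set to the same shares of UMIs per class, those of the 2 pools together. The ratio of the sum then became 1.02. Ctsl moved from 0.612 to 0.954, Gusb from 0.446 to 0.797, Atp6v1h from 0.665 to 0.799 and Ctsd from 1.34 to 1.08. Ctsl, Gusb and Atp6v1h then no longer passed 1.5-fold. Ctsc moved from 1.63 to 1.45, so that it no longer passed 1.5-fold, and Cd63 from 0.809 to 0.832. Cd68 and Ctss moved away from 1, from 1.40 to 1.51 and from 1.03 to 1.63, and then passed 1.5-fold. Ctss was most abundant in macrophage-like cells, where 36 OVX cells held 217 of its UMIs and 62 sham cells 223. Of these OVX UMIs, 40 came from 1 cell. Ctss was seen in 63.9% of these OVX and 62.9% of these sham cells. By class, Ctss was higher in OVX in 5 of 7 classes and lower in 2. The part of single classes in the ratio of 1.63 was not tested. Within all neutrophil-like cells Ctsl was 1.38-fold higher in OVX, and within macrophage-like cells 0.816-fold. Those macrophage-like cells gave 3.48% of OVX UMIs and 10.1% of sham UMIs.

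**Figure D4:**
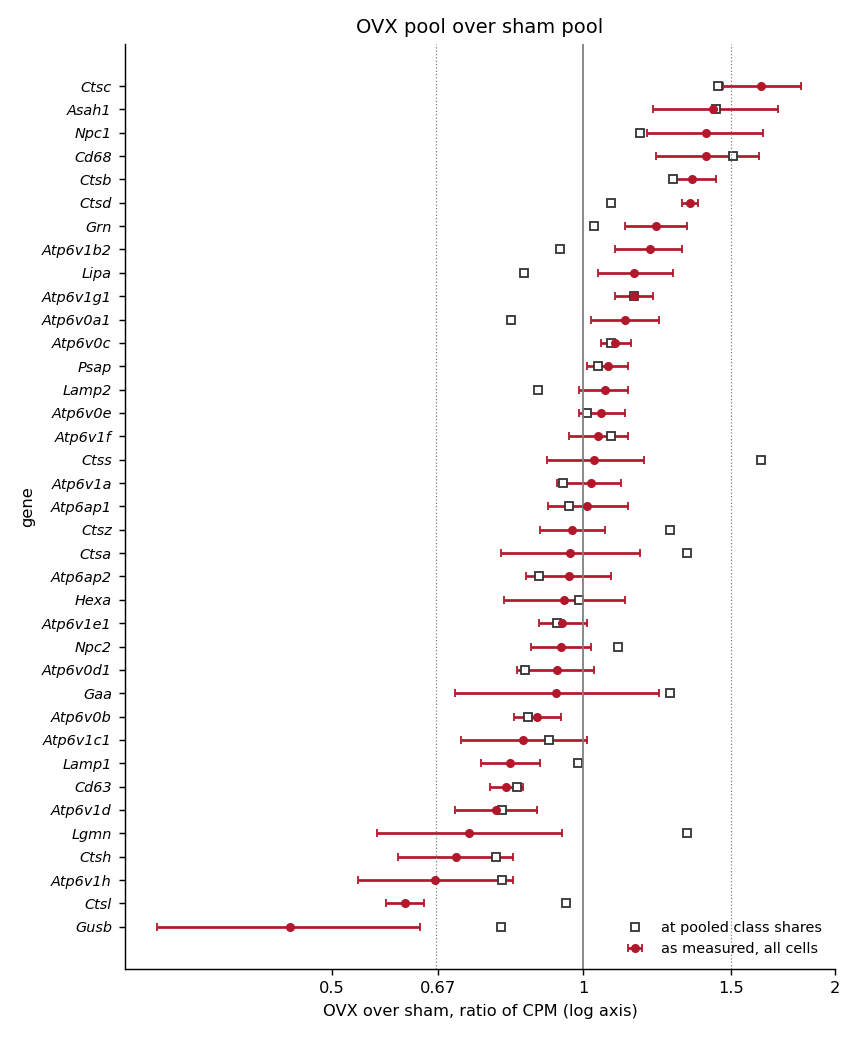
OVX over sham ratio of CPM (log axis) for the 37 genes with at least 100 UMIs; filled points with exact 95% intervals use all assigned cells, open squares set both pools to the same class shares, and dotted lines mark 1.5-fold. Ctsc is at 1.63 as measured and at 1.45, under the 1.5-fold line, at the same class shares, and Ctsl moves from 0.612 to 0.954.

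Class by class, the summed share gave an OVX over sham ratio of 0.790 in cycling progenitors (10 cells a pool), 0.890 in immature, 1.01 in resting, 1.18 in stefin-high, 0.895 in activated, 1.02 in macrophage-like and 1.09 in stromal-like cells. In immature cells, 26 genes could be compared, with Ctsb (1.74-fold) higher and Atp6v0b (0.623), Lipa (0.641) and Atp6ap2 (0.647) lower. Of all genes, 3.03% were higher and 9.50% lower there. In resting cells, Ctsc (1.65) and Asah1 (1.59) were higher and Ctsh (0.488) lower of 30 genes, against 4.77% of all genes higher and 7.52% lower. In stromal-like cells none of 22 passed 1.5-fold in either direction, where 3.50% of all genes were higher and 6.07% lower. In macrophage-like cells, Ctss (2.35) and Ctsz (1.63) were higher and Cd63 (0.479) lower of 27 genes, against 7.23% of all genes higher and 15.1% lower. That comparison rested on 36 OVX and 62 sham cells. Ctss was seen in 63.9% of these OVX and 62.9% of these sham cells, Ctsz in 61.1% and 75.8%, and Cd63 in 47.2% and 62.9%. The most in 1 OVX cell was 40 of 217 UMIs for Ctss and 38 of 238 for Ctsz. The most in 1 sham cell was 27 of 223 for Ctss and 31 of 352 for Ctsz.

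In stefin-high cells 5 of 32 genes were higher in OVX and none lower, against 16.2% of all genes higher and 11.0% lower, so the 5 were near the background share. They were Ctsb (325 against 151 CPM; 2.15-fold, 1.65 to 2.86), Npc1 (1.95), Cd68 (1.91), Ctsz (1.74) and Lamp1 (1.60). Lamp1 was under 1.5-fold with equal weight per cell (1.17), by hashtag share (1.26), with the 38 genes kept in the clustering (1.42) and with 1000 variable genes (1.49). Ctsd was 2677 against 1843 CPM (1.45-fold). The 87 sham cells of this class had a median of 2122 UMIs and the 425 OVX cells 6059, and the part of this difference in the folds was not tested.

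In activated cells Ctsc was the gene that differed most, at 216 CPM in OVX and 38.4 in sham (5.62-fold; 3.55 to 9.38). It was seen in 103 of 282 OVX cells (36.5%; 30.9 to 42.4) and in 16 of 198 sham cells (8.08%; 4.69 to 12.8), at median depths of 2905 and 2284 UMIs. No OVX cell of this class gave more than 14 of its 217 Ctsc UMIs. Cd63 (0.565-fold, but 0.757-fold with 1000 variable genes) and Atp6v1d (0.639-fold) were lower. These were 1 higher and 2 lower of 27 genes, where 11.2% of 1882 genes were higher and 8.66% lower. Ctsd was lower in OVX in this class, at 3362 against 4238 CPM.

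Over the mature classes together, Ctsc was 169 against 72.3 CPM (2.34-fold; 2.01 to 2.74) and Asah1 1.57-fold higher, while Ctsh (0.569) and Atp6v1h (0.630) were lower. These were 2 and 2 of 34 genes, against 8.04% of all genes higher and 5.61% lower. The mature cells differed in make-up: stefin-high cells were 425 of 874 in OVX and 87 of 730 in sham, and resting cells 167 and 445. With both pools together, Ctsc was at 162 CPM in stefin-high and 85.7 in resting cells. The part of this make-up in the ratios over the mature classes was not tested. Ctsc was not higher in OVX in every class: it was 0.926-fold in immature and 0.792-fold in macrophage-like cells, with intervals that included 1. In macrophage-like cells, 1 sham cell held 57 of the 198 sham UMIs of Ctsc. Ctsc was seen there in 47.2% of OVX and 41.9% of sham cells. Of the 37 genes, 5 were higher in OVX in at least 6 of 7 classes (Cd68 in all 7, and Ctsb, Asah1, Atp6v1f and Atp6v1g1), against 7.03% of 7666 genes. Another 7 were lower in at least 6 classes (Lamp1, Cd63, Atp6v0a1, Atp6v0b, Atp6v0d1, Atp6v1b2 and Atp6v1h), against 13.5%. Of these directions several rested on few UMIs, and no test across animals stands behind them.

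**Figure D5:**
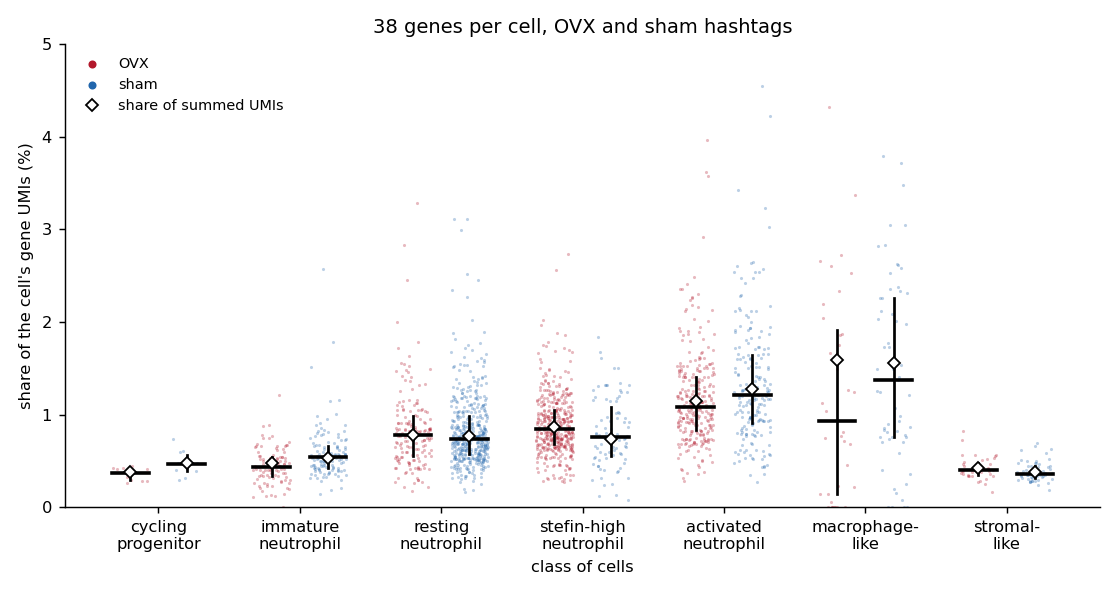
Each point is a cell, with the share of its UMIs from the 38 genes (%) by class, OVX in red and sham in blue; black bars give the median and quartiles, and diamonds the share of summed UMIs. Points of both pools overlap in every class, and in macrophage-like cells the OVX median, 0.929%, lies below the diamond at 1.59%.

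Other genes of the pathway were read from fixed lists. Of 33 further lysosomal hydrolase genes, 13 could be compared between activated and immature cells, and 8 were higher and 2 lower in activated cells. For these lists, the shares over all genes are the 37.1% higher and 22.5% lower given above. Counts of 5 of 10 higher lie near that share. Gla, the alpha-galactosidase gene, was 7.03-fold higher, and Napsa was lower (0.198-fold). Of the membrane and sorting genes, 5 of 10 were higher and 2 lower, led by Igf2r, which carries mannose-6-phosphate enzymes to the lysosome (10.3-fold), Slc11a1, a metal transporter of phagosomes (6.04), and Scarb2 (3.03). Sort1 (0.466) and Tpcn2 (0.574) were lower. Among MiT/TFE factors and the lysosomal mTORC1 scaffold, 5 of 10 were higher and 2 lower: the factor genes Mitf (6.94) and Tfec (4.76) and the GTPase gene Rragc (2.54) led, and the scaffold genes Lamtor4 (0.164) and Lamtor2 (0.418) were lower. Of 10 autophagosome genes, 5 were higher, with Sqstm1 (3.35), Map1lc3b (2.80) and Gabarapl1 (2.58) first, and Wipi1 (0.625) was lower. Of the V-ATPase genes outside the 38, Tcirg1 alone could be compared (0.623-fold). Osteoclast-linked Atp6v0d2 was at 8.25 CPM in macrophage-like cells.

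In macrophage-like against neutrophil-like cells, M6pr, the other mannose-6-phosphate receptor gene, was 5.49-fold higher, and Tcirg1 3.83-fold. By list, 5 of 17 hydrolase genes were at least 1.5-fold higher there and 2 lower. Of 16 membrane and sorting genes, 6 were higher and 4 lower, and of 12 factor and scaffold genes 4 were higher and none lower. Of 10 autophagosome genes, 1 was higher and 4 lower, and 2 of 2 other V-ATPase genes were higher. Of all genes, 45.1% were higher and 20.4% lower. In stromal-like cells the collagenolytic Ctsk, best known from osteoclasts, was 48.9-fold higher, at 78.4 CPM, and Laptm4b 37.0-fold. Sqstm1, an autophagy receptor gene, was 4.31-fold higher in stromal-like cells. Most hydrolase genes went the other way in stromal-like cells, with 4 of 19 higher and 15 lower. Of 18 membrane and sorting genes, 6 were higher and 8 lower, and of 12 factor and scaffold genes 3 were higher and 7 lower. Of 10 autophagosome genes, 3 were higher and 4 lower, and of 2 other V-ATPase genes 1 was higher and 1 lower. Of all genes, 54.4% were higher and 26.4% lower. In OVX against sham over all cells, 3 of 19 hydrolase genes were higher (Galc at 1.92, Ppt2 at 1.84 and Man2b1 at 1.56) and none lower. Over all genes 4.66% were higher and 21.1% lower. Of the membrane and sorting genes 3 of 16 were higher (Slc11a1 at 1.58, Clcn7 at 1.52 and Sort1 at 1.51). Mitf (1.61) and Tfec (1.57) were higher and Flcn (0.634) lower of 12 factor and scaffold genes, and Sqstm1 (0.610) was lower among 10 autophagosome genes. With both pools set to the same class shares, the summed ratio of the hydrolase list moved from 1.13 to 1.05. That of the membrane and sorting list moved from 1.17 to 1.04. The factor and scaffold list moved from 0.967 to 0.982 and the autophagosome list from 0.936 to 0.922. For the single genes of these lists, the part of the make-up was not tested.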

How the data were processed

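Single-cell libraries were prepared with the 10x Chromium 3′ v3.1 kit. The authors deposited raw UMI counts per gene and barcode, made with Cell Ranger on mm10; the file header names version 6.0.0 and the submitters' notes 6.0.1, and the notes also list featureCounts 1.5.0-p3. The deposited counts included the 2 hashtags, which were used with HTODemux (Seurat 5.3.0, positive quantile 0.99) to assign barcodes. Clusters were made with scanpy 1.11.5 (counts to 10000 per cell, log scale, 2000 variable genes without the 38 genes and pathway lists, 30 principal components, 15 neighbors, Louvain, 6 clusters, the cycling one split). No barcode was filtered and no doublet caller was run; barcodes past both hashtag cutoffs were left out of OVX and sham. Counts were summed by class and pool and given as CPM or percent of gene UMIs. Shares have exact binomial, CPM exact Poisson and ratios exact conditional binomial 95% intervals. No statistical test was made, since each condition was 1 pool. A fold was read for genes with at least 100 UMIs in both groups together. Named with values were the 10 most abundant of the 38 genes, those past 1.5-fold (the 5 largest each way where more than 8 passed), every V-ATPase subunit, and the 3 largest folds each way in the pathway lists. Some genes that this rule names are not reported here. Genes named outside this rule were named to account for all 38, or as markers. The genes and lists were chosen with earlier results of these data known. Scripts were tested on simulated data. Alternatives were another clustering, fold, hashtag rule, cell filter and weighting.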

Additional observations from a re-analysis of the deposited data

Results flagged for a closer look

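The OVX over sham ratio of the summed share did not have the same direction in all classes. It was 1.18 in stefin-high and 1.09 in stromal-like cells, and 0.790 in cycling progenitors, 0.890 in immature and 0.895 in activated cells. The intervals of these 5 ratios exclude 1, but they cover counting error only, and the difference between classes was not tested across animals. The ratio in activated cells turned to 1.06 with 1000 variable genes and to 1.04 with 30 neighbors. That in stefin-high cells was 1.08 without Ctsd, 1.10 with equal weight per cell and 1.26 with 30 neighbors. The stromal-like ratio rested on 38 OVX and 54 sham cells.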

How the results depend on the processing

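No paired analysis was possible because each condition was 1 pool, and no replicate could be left out. The activated over immature ratio of the summed share (2.33) was 2.05 with the 38 genes and pathway lists kept in the clustering, 2.12 with Leiden, 1.70 with 1000 variable genes, 1.60 with 30 neighbors, 2.21 with cells of at least 500 genes and under 10% mitochondrial UMIs, 1.94 without Ctsd and 1.81 without S100a8 and S100a9 in the total. The activated class itself ranged from 380 to 1046 cells, and the macrophage-like class had 62 cells in place of 118 with the genes kept. In that order of clusterings, the macrophage-like ratio (1.97) was 2.59, 1.89, 1.88 and 1.89; it was 1.39 with equal weight per cell, 2.49 without Ctsd and 1.48 without the S100 genes. The stromal-like ratio (0.497) was 0.435, 0.669 and 0.368 under these last 3. The OVX over sham ratio over all cells (1.06) reversed to 0.993 and 0.99 under the first 2 of them; it was 1.10 without the S100 genes, 1.20 when a barcode was assigned by its share of hashtag UMIs and 1.02 at equal class make-up. In mature cells (1.05) it was 1.04 with the genes kept, 1.08 with 1000 variable genes, 1.00 with 30 neighbors, 1.03 with filtered cells, 1.01 with equal weight and 1.07 by hashtag share; in activated cells (0.895) it reversed to 1.06 and 1.04 with 1000 variable genes and 30 neighbors. Genes past the fold numbered 14 at 2-fold, 13 with 1000 variable genes and 12 with 30 neighbors in place of 22, and 16 higher with 1 lower without the S100 genes; at 2-fold 17 in place of 26 and 17 in place of 27 for macrophage-like and stromal-like cells; and 1 at 2-fold and 8 by hashtag share (6 higher, 2 lower) in place of 4 for OVX over sham. Ctsc in activated cells was 2.90-fold with 1000 variable genes in place of 5.62. The causes were not tested. For the counts of genes under these alternatives, no share over all genes was computed.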

Other observations

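Barcodes in neither pool were not part of the OVX and sham values. The 231 barcodes past neither hashtag cutoff had 0.440% of their UMIs in the 38 genes, with a median cell at 0.485%, and 112 of them were stromal-like. The 78 barcodes past both cutoffs had 0.680%, with a median cell at 0.821%.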
